A study of Mus musculus with 12 samples.

Results

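Circulating monocytes taken 24 h after removal of 70% of the liver were compared with circulating monocytes of intact mice. The comparison uses 6 of the 12 RNA-seq libraries of the series, namely the 3 titled as CD115+ blood monocytes after the 70% resection and the 3 titled as CD115+ blood monocytes of intact animals, and it was followed over 15680 gene symbols with enough counts to test. Of these, 74 chemokines, chemokine receptors and genes with a symbol ending in cam were left aside, so that the description covers the remaining 15606. All animals were male C57BL/6 mice with the spleen in place. The mononuclear fraction of heparinised blood was collected on a Ficoll gradient and passed over magnetic beads carrying antibody to CD115, and each library pooled the cells of 5 mice. The resected group was operated under isoflurane anaesthesia. For its operated mice the paper also describes meloxicam as analgesic before and after surgery. The labels give the other group as intact in spleen and liver and name no sham operation for it. The loss of liver, the surgery itself and the drugs given with it therefore cannot be told apart in this comparison. The other 6 libraries hold CD115+ splenic monocytes of the same states, and they enter only the shared estimate of the spread and the tests of the difference between tissues.

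Monocytes are short-lived phagocytes that are released from bone marrow and spleen and turn into macrophages in injured tissue. CD115 is the receptor for colony stimulating factor 1, which most monocytes need to survive. In the regenerating liver such cells clear dead hepatocytes, digest them in lysosomes and release cytokines, proteases and antiproteases. Slpi encodes a secreted inhibitor of neutrophil serine proteases, Mertk a receptor tyrosine kinase that binds apoptotic cells through bridging proteins, and Ctsd the lysosomal aspartic protease cathepsin D.

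The blood libraries held from 41373165 to 45588274 gene counts, of which haemoglobin transcripts took 13.2% to 34.2%, with overlap between the states. Levels are given as CPM, counts per 1000000 after scaling of the library size by the trimmed mean of M values (TMM), so they compare a gene between libraries and not genes with each other. Intact library 3 and resected library 3 stood apart from the others of their group. The chi-square statistic of the counts per degree of freedom was 599 and 455 between intact library 3 and its group mates, against 61.7 between those mates, and 297 and 348 for resected library 3 against 64.1. The summed level of 16 T-cell markers was 2405, 2237 and 5067 CPM in intact libraries 1 to 3 and 916, 963 and 548 CPM after resection. The sum of 22 neutrophil markers was 633, 701 and 226 CPM in the intact and 5500.3, 7153 and 27340.0 CPM in the resected libraries. Intact library 3 was thus the richest in T-cell transcripts and resected library 3 the richest in neutrophil transcripts, while Csf1r, the gene for CD115, was read in every library at 467, 363 and 209 CPM in the intact libraries and 601, 678 and 719 CPM after resection. In sorted bulk cells, fewer cells of a type and less RNA per cell cannot be told apart.

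Resection was accompanied by a wide change of expression. Of the 15680 symbols tested 16.1% were called, 9.2% as higher and 6.86% as lower, at a Benjamini-Hochberg adjusted p below 0.05 and a log2 fold change beyond 1 in either direction in edgeR's quasi-likelihood test. Without chemokines, chemokine receptors and cam-named genes these were 1415 genes that rose and 1072 that fell. Over all 20135 features tested, 1570 rose (7.8%) and 1231 fell (6.11%). Leaving out 1 blood library at a time gave 1433, 1284 and 1432 higher and 1232, 1163 and 1128 lower features without intact libraries 1, 2 and 3. The same exercise gave 1506, 1122 and 992 higher and 884, 648 and 635 lower features without resected libraries 1, 2 and 3, so the number of falls depended on resected libraries 2 and 3. With library 3 of each state left out 1025 features were higher and 882 lower. The median log2 fold change over all features was -0.10. In 43.4% of the symbols the 3 resected libraries all lay on 1 side of the 3 intact ones, so a lack of overlap was common by itself. Except where a library is named, each gene described below as having risen or fallen kept its call with every one of the 12 libraries left out in turn. The effect of resection in blood differed from that in splenic monocytes, by the interaction term of the fit over both tissues, in 49 gene symbols (0.312%).

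Slpi had the smallest p-value of all symbols. It stood at 105, 54.0 and 73.6 CPM in the intact libraries and 2410.4, 2923 and 2759 CPM after resection, a 34.8-fold rise (log2 fold change 5.12 ± 0.27 (SE), adjusted p = 5.75e-05). Mertk was at 9.17, 5.40 and 8.15 CPM in the intact libraries and 71.6, 81.6 and 94.7 CPM after resection (log2 fold change 3.45 ± 0.28 (SE), adjusted p = 0.000394). Ctsd was at 506, 413 and 564 CPM in the intact libraries and 2935, 3482 and 3389.8 CPM after resection (log2 fold change 2.73 ± 0.22 (SE), adjusted p = 0.000394). In all 3 genes the lowest resected library lay far above the highest intact library, and the resected libraries were close to each other. The part of neutrophils or peritoneal macrophages, whose markers are given below, in these levels was not tested. Csf1r did not pass the test (log2 fold change 0.94 ± 0.32 (SE), adjusted p = 0.0594), though its resected libraries lay above its intact ones, and it was called without intact library 1 (log2 fold change 1.25).

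**Figure D1:**
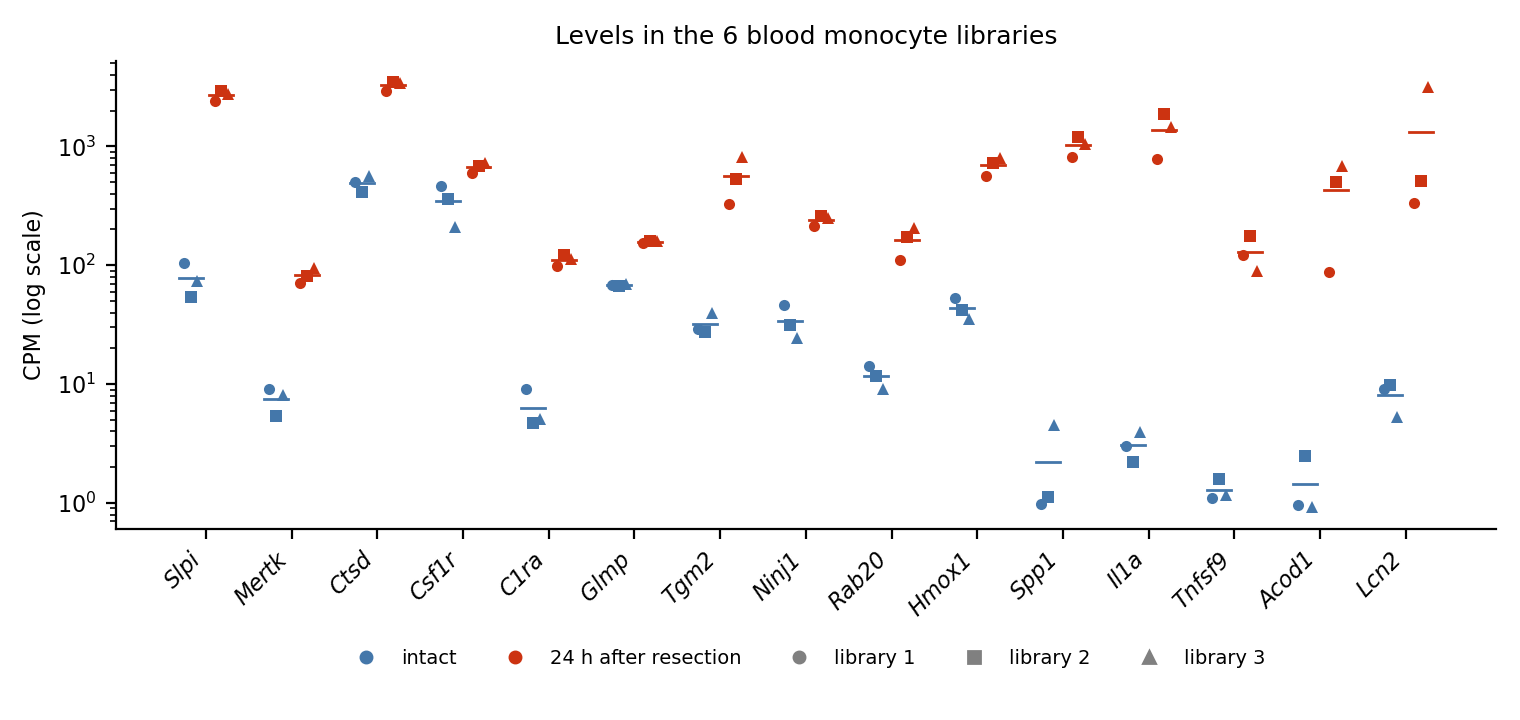
Level of 15 genes (CPM, logarithmic axis) in each of the 3 intact (blue) and 3 resected (red) blood monocyte libraries, with a line at the mean of each group and a symbol shape for the library number. Slpi, Mertk, Ctsd, C1ra and Glmp are tight within each state and far apart between states, Csf1r is close between states, and Lcn2 stands at 331, 516 and 3152 CPM in resected libraries 1, 2 and 3.

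Other genes among those with the smallest p-values follow, which were chosen only where the resected and intact libraries did not overlap. C1ra, a serine protease that starts the classical complement cascade, was at 9.11, 4.70 and 5.11 CPM in the intact libraries and 98.0, 121 and 114 CPM after resection (log2 fold change 4.14 ± 0.27 (SE), adjusted p = 0.000236). Glmp, a glycoprotein of the lysosomal membrane, was at 68.5, 67.3 and 69.4 CPM in the intact libraries and 153, 160.1 and 159 CPM after resection, and its rise of 2.30-fold had the smallest standard error among the genes named (log2 fold change 1.20 ± 0.09 (SE), adjusted p = 0.000394). Both were even within each state. Tgm2, a transglutaminase that crosslinks proteins, was at 29.1, 27.3 and 39.6 CPM in the intact libraries and 329, 530.2 and 818 CPM after resection, a 17.5-fold rise. Spp1, the secreted glycoprotein osteopontin, was at 0.991, 1.13 and 4.52 CPM in the intact libraries and 816, 1203 and 1042 CPM after resection (log2 fold change 8.83 ± 0.80 (SE), adjusted p = 0.000428). Spp1 thus went from a few CPM to levels far above that, and no resected library came near an intact one. Rab20, a small GTPase of endosomes and phagosomes, rose 13.9-fold from 14.3, 11.6 and 9.09 to 111, 172 and 205 CPM. Ninj1, a membrane protein of plasma membrane rupture, rose 7.08-fold from 46.2, 31.7 and 24.2 to 215, 259 and 249 CPM. In each of these genes the lowest resected library was above the highest intact one, as the choice required.

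Besides Spp1, the following genes were among the largest fold rises. Il1a, an alarmin cytokine, went from 3.00, 2.21 and 3.98 CPM to 777, 1860.4 and 1454 CPM (log2 fold change 8.80 ± 0.89 (SE), adjusted p = 0.000623). Acod1, which makes itaconate, went from 0.963, 2.49 and 0.917 to 86.9, 503 and 687 CPM (log2 fold change 8.19 ± 0.99 (SE), adjusted p = 0.00113). Upp1, uridine phosphorylase, went from 0.0275, 0.462 and 0.240 to 12.999, 33.0 and 120.2 CPM (log2 fold change 7.80 ± 1.14 (SE), adjusted p = 0.00224). In Acod1 and Upp1 resected library 1 was the lowest and resected library 3 the highest, several times apart. Gpr84, a receptor for medium-chain fatty acids, was at 0.358, 0.745 and 0.262 and 21.6, 37.0 and 142 CPM, and Prok2, a secreted prokineticin, at 0.0826, 0.0257 and 1.42 and 23.0, 45.5 and 163 CPM. Cstdc5, a stefin-type cysteine protease inhibitor, was at 0.330, 0.719 and 0.328 and 14.8, 19.7 and 128 CPM. These 3 genes and Lcn2 were highest in resected library 3, where the neutrophil markers were highest too, and the part of those cells in their levels was not tested. Tnfsf9, a ligand that costimulates T cells, had no such tilt at 1.10, 1.59 and 1.18 and 121, 176 and 89.3 CPM (log2 fold change 6.64 ± 0.61 (SE), adjusted p = 0.000450).

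Members of the 38 lists of genes by function shifted mostly upwards. The lists hold 969 genes, of which 905 were tested, 312 rose and 30 fell. In 34 of the 38 lists more genes rose than fell, and in 22 none fell. In 18 lists the median log2 fold change was above 1 and in 4 it was below 0, beside a median of -0.10 over all symbols. Genes of the lists were chosen for their roles in monocytes and macrophages, and the counts are given as a description.

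**Figure D2:**
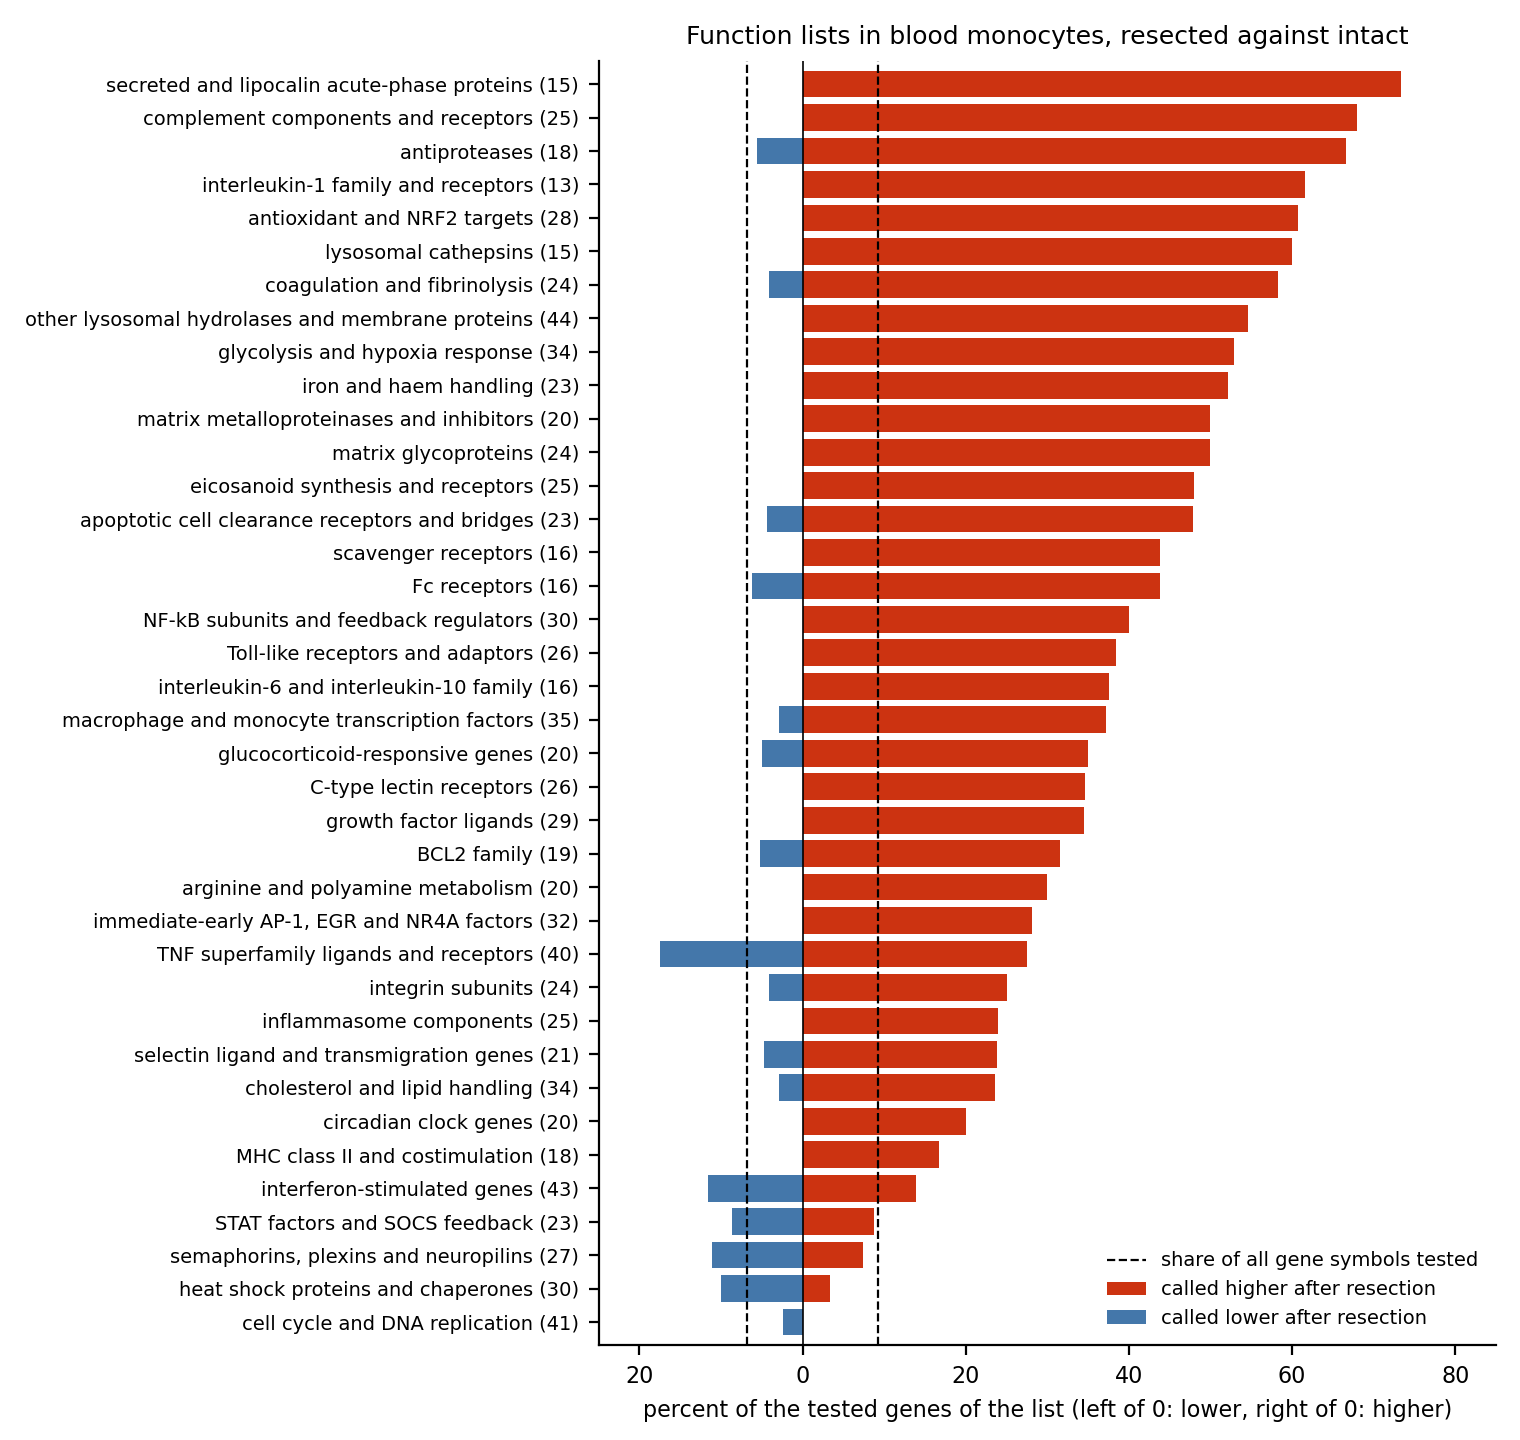
Percent of the tested genes of each function list called higher (red, right of 0) or lower (blue, left of 0) after resection in blood monocytes, with the number of tested genes in brackets and the share among all gene symbols as dashed lines (9.2% higher, 6.86% lower). Acute-phase proteins, complement, antiproteases, the interleukin-1 family, antioxidant genes and cathepsins stand at the top, and cell cycle, heat shock, semaphorin and STAT lists at the bottom.

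Lysosomal genes rose as broad sets and evenly across the resected libraries. Of 15 cathepsins and related lysosomal proteases tested 9 rose and 0 fell, with a median log2 fold change of 1.51. Ctsb, cathepsin B, was at 746, 559 and 835 CPM in the intact libraries and 2520.4, 3475 and 3077 CPM after resection (log2 fold change 2.08 ± 0.23 (SE)). Lgmn, the asparaginyl endopeptidase legumain, was at 82.3, 46.8 and 96.6 CPM in the intact libraries and 364, 515 and 426 CPM after resection (log2 fold change 2.53 ± 0.26 (SE)). Ctsz, cathepsin Z, was at 186, 193 and 169 and 474, 577 and 586 CPM, and Ctsa, the protective protein of the sialidase complex, at 279, 232 and 194 and 633, 758 and 613 CPM. All 4 genes and Ctsd had 3 resected values within a narrow band above every intact value. Without resected library 2 the number of cathepsins called was 6, and it was 7 without resected library 3.

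Of the 44 other lysosomal hydrolases and membrane proteins 24 rose and 0 fell, with a median of 1.15. Gaa, acid alpha-glucosidase, was at 58.6, 49.0 and 69.6 CPM in the intact libraries and 180.2, 219.6 and 233 CPM after resection. Glb1, beta-galactosidase, was at 42.3, 29.5 and 41.0 and 109, 124 and 116 CPM, and Naglu, which removes N-acetylglucosamine from heparan sulphate, at 18.7, 17.6 and 14.7 and 50.6, 54.1 and 49.3 CPM. Lamp1, the main glycoprotein of the lysosomal membrane, was at 342, 287 and 276 and 783, 960.1 and 934 CPM. The 4 rises were 3.57-fold, 3.09-fold, 3.02-fold and 2.96-fold, so they were similar in size, and none of these genes overlapped between states. Over the list the level in resected library 3 was 1.09 times the mean of resected libraries 1 and 2 at the median, against 3.56 times for the neutrophil markers. The part of other cell types in the lysosomal levels was not tested. Among the 21 subunits and partners of the proton pump that acidifies lysosomes, a family defined by symbol after the values were seen, 11 rose and 0 fell, with a median of 1.00. Atp6v0d1 and Atp6v1h, which were chosen as examples after their values were seen, rose 2.76-fold and 2.39-fold.

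The promoters of these genes were read to see whether they share letters. The E-box CACGTG, which is the same on both strands and is the core of the element that the lysosomal regulator TFEB binds, was searched in 300 bases around each RefSeq gene start, 250 before and 50 after. Among 52 windows of 46 of the 59 genes in both lysosomal lists 15 held it (28.8%), beside 9.31% of 15663 windows of the symbols tested and 7.15% of all 32851 windows. Of the 27 windows of lysosomal genes that rose 11 held it (40.7%), while the share was 9.86% over 1420 windows of all genes that rose and 8.5% over 1094 windows of those that fell. The 250 bases before the start are shown for 3 lysosomal genes that hold the letters, and for Slpi and Mertk, since the results turn on them (RefSeq, build GRCm38.p6, 5′ to 3′ on the strand of the gene, with CACGTG in capitals). Ctsd lies at chr7:142387828-142388077 on the minus strand, Lamp1 at chr8:13158911-13159160 on the plus strand, Ctsa at chr2:164833523-164833772 on the plus strand, Slpi at chr2:164356508-164356757 on the minus strand and Mertk at chr2:128698665-128698914 on the plus strand.
Ctsd: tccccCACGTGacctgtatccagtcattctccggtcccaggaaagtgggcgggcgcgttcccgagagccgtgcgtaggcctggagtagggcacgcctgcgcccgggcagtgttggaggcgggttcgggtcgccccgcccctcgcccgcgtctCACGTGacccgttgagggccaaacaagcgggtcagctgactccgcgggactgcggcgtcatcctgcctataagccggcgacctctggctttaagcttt
Lamp1: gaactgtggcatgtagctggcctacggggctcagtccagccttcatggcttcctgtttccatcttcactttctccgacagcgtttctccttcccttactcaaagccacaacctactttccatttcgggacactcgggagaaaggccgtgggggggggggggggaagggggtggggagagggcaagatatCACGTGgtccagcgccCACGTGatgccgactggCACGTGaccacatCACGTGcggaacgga
Ctsa: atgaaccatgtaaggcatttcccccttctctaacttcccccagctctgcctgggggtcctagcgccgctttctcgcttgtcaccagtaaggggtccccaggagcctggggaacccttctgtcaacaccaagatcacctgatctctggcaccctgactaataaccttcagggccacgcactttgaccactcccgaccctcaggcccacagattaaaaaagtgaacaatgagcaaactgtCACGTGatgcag
Slpi: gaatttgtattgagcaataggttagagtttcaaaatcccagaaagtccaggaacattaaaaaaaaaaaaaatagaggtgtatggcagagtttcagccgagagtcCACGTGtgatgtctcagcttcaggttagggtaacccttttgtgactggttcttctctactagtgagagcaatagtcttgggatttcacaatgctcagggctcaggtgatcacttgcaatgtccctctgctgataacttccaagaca
Mertk: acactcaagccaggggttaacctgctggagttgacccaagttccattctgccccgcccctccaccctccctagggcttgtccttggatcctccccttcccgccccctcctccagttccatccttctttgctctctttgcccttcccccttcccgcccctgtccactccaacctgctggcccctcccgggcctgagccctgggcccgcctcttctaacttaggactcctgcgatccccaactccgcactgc

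Ctsd holds the letters at 245 and 98 bases before the start, counted at the first letter, and Lamp1 holds them at 61, 45, 28 and 15 bases. Ctsa holds them once at 12 bases and Slpi once at 146 bases. The shown Mertk stretch does not hold them. A second RefSeq start of Ctsa has no E-box in the same stretch. Ctsd, Lamp1 and Ctsa all rose, while Arsa, Ctsf, Sgsh and Mcoln1 hold the letters in the same stretch and were not called. Tfeb itself was not called. The lists were built from genes known as lysosomal, and a role of TFEB in their rise was not tested. These are matches of letters and not measured binding.

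Receptors and bridges for apoptotic cells moved unevenly. Of 23 tested 11 rose and 1 fell, with a median of 1.28, and 3 fell without spleen resected library 3. Besides Mertk, Anxa1, a phospholipid-binding protein, was at 116, 111 and 53.0 CPM in the intact libraries and 542, 729 and 1479.5 CPM after resection, and Lrp1, an endocytic receptor of the lipoprotein receptor family, at 559, 368 and 295 CPM in the intact libraries and 837, 1085 and 1586 CPM after resection. Cd300lf, a receptor for phosphatidylserine and ceramide, was at 11.1, 18.4 and 6.33 and 83.3, 118 and 419 CPM. Anxa1 and Cd300lf were highest in resected library 3, and Lrp1 less so. Tyro3, a receptor of the same family as Mertk, fell by the test from 2.64, 4.01 and 14.9 to 1.31, 1.66 and 0.816 CPM, but its intact mean rested on library 3, and it was not called without intact library 3 or without any 1 of the resected libraries. Axl, the other relative of Mertk, was at 44.3, 39.6 and 18.9 and 11.0, 10.1 and 6.50 CPM and did not pass (log2 fold change -1.90 ± 0.67 (SE), adjusted p = 0.0686). Axl was called in the fit without spleen resected library 3. Of 16 scavenger receptors 7 rose and 0 fell, with a median of 1.61. Cd68, a scavenger receptor of late endosomes, was at 116, 99.3 and 77.7 CPM in the intact libraries and 394, 480.1 and 468 CPM after resection, Scarb2, a lysosomal receptor of the same class as Cd36, at 106, 88.1 and 83.2 CPM in the intact libraries and 255, 276 and 364 CPM after resection, and Cd163, the receptor for haemoglobin bound to haptoglobin, at 21.2, 18.0 and 17.9 CPM in the intact libraries and 231, 220.4 and 274 CPM after resection. Cd163 rose 12.7-fold, the others 4.58-fold and 3.22-fold, and the states did not overlap. Cd36 itself was at 82.3, 55.8 and 73.8 and 112, 113 and 72.7 CPM and did not pass the test.

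Slpi was not the only antiprotease that rose. Of 18 tested 12 rose and 1 fell, with a median of 2.38. Serpinb2, an inhibitor of urokinase that is kept mostly inside the cell, was at 32.0, 12.2 and 22.5 CPM in the intact libraries and 288, 630.4 and 435 CPM after resection, Wfdc17, a small protein of the family of Slpi, at 61.3, 40.5 and 73.7 CPM in the intact libraries and 510.1, 518 and 805 CPM after resection, and Cstb, cystatin B, at 19.5, 18.9 and 22.5 CPM in the intact libraries and 69.0, 112 and 166 CPM after resection. Serpinb2 and Wfdc17 rose 20.3-fold and 10.4-fold. Wfdc21, of the same family, went from 0.716, 1.39 and 0.546 to 59.3, 71.1 and 257 CPM and was highest in resected library 3, as was Stfa2l1, a stefin, at 0.440, 1.28 and 0.415 and 13.7, 25.0 and 105 CPM. Both belong to the neutrophil list, and Serpinb2 belongs to the peritoneal macrophage list. Of the 15 antiproteases in neither list 9 rose. The gene that fell, Serpinb6b, was at 10.2, 11.2 and 6.66 and 3.84, 4.96 and 2.22 CPM and lost its call without any 1 of intact libraries 1 and 2 or resected libraries 1 and 3. Of 15 acute-phase and lipocalin-type secreted proteins 11 rose and 0 fell, with a median of 4.39. Of the 15, 4 are neutrophil markers and 2 are peritoneal macrophage markers, and of the 9 in neither list 5 rose. Ltf, lactoferrin, was even at 26.3, 13.7 and 13.8 CPM in the intact libraries and 153, 137 and 142 CPM after resection. S100a8 and S100a9, the subunits of calprotectin, were at 51.1, 86.6 and 24.5 and 66.2, 119 and 29.7 CPM in the intact libraries and at 1249, 1519.5 and 7421 and 1109, 1568 and 5866 CPM after resection. Chil1, a chitinase-like protein, was at 2.06, 4.29 and 0.939 and 54.0, 109 and 431 CPM. All but Ltf were several times higher in resected library 3 than in the other 2. Over the list that library was 3.94 times the mean of resected libraries 1 and 2 at the median.

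Cytokine genes are given by family. In the interleukin-1 family 8 of 13 rose and 0 fell, with a median of 2.47. Without intact library 3 7 rose and 3 fell, and the median was 1.46 without resected library 3. With only the 6 blood libraries fitted 4 of the 13 rose. Il1b was at 71.5, 124 and 20.9 CPM in the intact libraries and 451, 1407 and 1480.0 CPM after resection and Il1rn, the receptor antagonist, at 5.59, 6.58 and 3.71 CPM in the intact libraries and 39.5, 130.1 and 563 CPM after resection. Il1rn was lowest in resected library 1 and highest in resected library 3, whereas Il1b was alike in resected libraries 2 and 3. Of 16 genes of the interleukin-6 and interleukin-10 families 6 rose and 0 fell, with a median of 1.45. Osm, oncostatin M, was at 30.3, 21.1 and 13.2 CPM in the intact libraries and 207, 371 and 199 CPM after resection, Il6 at 2.23, 2.24 and 0.524 CPM in the intact libraries and 25.5, 129 and 79.6 CPM after resection and Il10 at 1.68, 2.88 and 0.830 CPM in the intact libraries and 29.0, 144 and 123 CPM after resection. Il6 and Il10 were both lowest in resected library 1 and highest in resected library 2, and no library overlapped between states. Il23a, a cytokine subunit, went from 0.0550, 0.154 and 0.0218 to 3.57, 10.9 and 5.46 CPM.

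The TNF superfamily split. Of 40 ligands and receptors 11 rose and 7 fell, with a median of 0.26, which was -0.13 without intact library 3 and -0.07 without resected library 1. Tnf was at 11.4, 15.0 and 9.26 CPM in the intact libraries and 621, 1198 and 728 CPM after resection (log2 fold change 6.16 ± 0.73 (SE), adjusted p = 0.00111), and Tnfsf14 and Tnfsf13, both ligands, at 4.79, 7.27 and 3.67 and 15.9, 10.8 and 7.54 CPM in the intact and 29.0, 33.4 and 49.1 and 46.1, 44.8 and 31.2 CPM in the resected libraries. Tnfrsf11a, the receptor RANK, was at 7.10, 5.24 and 5.02 and 14.7, 17.5 and 22.0 CPM. Of the genes that fell, Cd27, a receptor of T and B cells, was at 49.5, 45.1 and 47.4 CPM in the intact libraries and 6.04, 8.25 and 2.45 CPM after resection, and Tnfsf10, the ligand TRAIL, at 9.03, 8.43 and 7.73 CPM in the intact libraries and 4.15, 3.19 and 3.01 CPM after resection. Cd27 lay beside the T-cell sum given above, which was also lower after resection, and the part of T cells in its level was not tested. The number of falls in the superfamily was 4 without intact library 1 and 2 without resected library 2 or 3. Of 29 growth factor ligands 10 rose and 0 fell, with 6 higher without intact library 2 or without resected library 2. Hbegf, an EGF-family ligand, was at 1.76, 1.26 and 0.961 CPM in the intact libraries and 17.2, 41.5 and 27.7 CPM after resection, Areg, another of that family, at 0.578, 0.796 and 0.0655 CPM in the intact libraries and 6.68, 28.0 and 21.9 CPM after resection, and Inhba, the activin A subunit, at 0.0826, 0.128 and 0.218 CPM in the intact libraries and 2.99, 8.25 and 26.7 CPM after resection. Bmp2 was at 4.51, 2.65 and 4.19 and 19.3, 30.5 and 18.1 CPM. Hbegf, Areg and Bmp2 were highest in resected library 2 and Inhba in resected library 3.

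Genes of the coagulation and complement cascades rose, inhibitors included. Of 24 coagulation and fibrinolysis genes 14 rose and 1 fell, with a median of 1.52, and the number higher was 9 without intact library 2 or resected library 2 and 7 without resected library 3. F3, tissue factor, was at 1.10, 0.848 and 0.153 CPM in the intact libraries and 26.6, 111 and 66.0 CPM after resection (log2 fold change 6.61 ± 0.97 (SE), adjusted p = 0.00224). Plau, urokinase, was at 5.70, 13.8 and 3.39 CPM in the intact libraries and 79.3, 99.7 and 62.2 CPM after resection, so the activator and its inhibitor Serpinb2 both rose. Pros1, protein S, which is an anticoagulant and a bridge between apoptotic cells and Mertk, was at 54.4, 34.1 and 28.2 CPM in the intact libraries and 142, 153 and 109.6 CPM after resection, a 3.47-fold rise. Of 25 complement components and receptors 17 rose and 0 fell, with a median of 1.98, and 10 rose without resected library 2. Besides C1ra, Cfp, which stabilises the alternative convertase, was at 344, 229 and 147 CPM in the intact libraries and 898, 1058 and 882 CPM after resection, and C5ar1, the receptor for C5a, at 30.3, 30.9 and 25.2 CPM in the intact libraries and 236, 430.4 and 617 CPM after resection. C1s1, the partner protease of C1ra, went from 0.358, 0.591 and 0.939 to 4.76, 7.24 and 10.6 CPM. The rise of 3.94-fold for Cfp was even over the resected libraries, while C5ar1 was highest in resected library 3. The summed level of 23 peritoneal macrophage markers, 3 of them in the coagulation list and 2 in the complement list, moved in the same direction, from 8720.0, 4559.6 and 4791 to 28093, 34501 and 42326 CPM, and the part of such cells was not tested.

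Matrix proteins and the proteases that cut them rose too. Of 24 matrix glycoproteins 12 rose and 0 fell, with a median of 1.98. Lgals1, galectin 1, was at 49.8, 50.8 and 36.5 CPM in the intact libraries and 123, 196 and 142 CPM after resection. Emilin1, an elastin-associated glycoprotein, was at 24.8, 13.026 and 17.7 and 124, 126 and 135 CPM, and Nid2, a basement membrane protein, at 2.92, 1.98 and 1.94 and 10.8, 12.3 and 12.6 CPM. The resected values of Emilin1 and Nid2 lay close together, and in all 3 genes they lay above the intact ones. Of 20 metalloproteinases and inhibitors 10 rose and 0 fell, with a median of 2.19, and 6 rose without resected library 3. Adam8, a membrane metalloproteinase of myeloid cells, was at 95.7, 68.3 and 33.6 CPM in the intact libraries and 646, 780.0 and 1131 CPM after resection, Mmp9, a gelatinase that neutrophils store, at 78.4, 86.0 and 20.3 CPM in the intact libraries and 499, 657 and 1829.8 CPM after resection, and Mmp14, a membrane-type collagenase, at 0.440, 0.899 and 1.03 CPM in the intact libraries and 7.05, 37.5 and 149 CPM after resection. All 3 were highest in resected library 3, Adam8 by the least. Over the list resected library 3 was 2.65 times the mean of the other resected libraries at the median.

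Receptors for microbial products were counted by family. Of 26 Toll-like receptors and adaptors 10 rose and 0 fell, with a median of 0.76, and 6 rose without intact library 3 or resected library 3, with a median of 0.41 without the former. Tlr2 was at 78.2, 66.4 and 32.8 CPM in the intact libraries and 274, 423 and 494 CPM after resection, Tlr4 at 19.2, 19.9 and 15.4 CPM in the intact libraries and 38.5, 37.0 and 56.2 CPM after resection, and Ly96, the partner of Tlr4, at 2.23, 2.00 and 1.55 CPM in the intact libraries and 6.47, 8.80 and 7.94 CPM after resection. Tlr4 rose 2.42-fold and Tlr2 6.72-fold, without overlap. Of 25 inflammasome components 6 rose and 0 fell. Nlrp3, a cytosolic sensor, was at 48.3, 35.1 and 10.9 CPM in the intact libraries and 304, 668 and 729 CPM after resection, and Pycard, its adaptor, at 14.5, 16.1 and 24.5 CPM in the intact libraries and 55.0, 62.6 and 77.2 CPM after resection. Of 26 C-type lectin receptors 9 rose and 0 fell. Clec4e, the receptor Mincle for dead cells and mycobacterial lipid, was at 24.7, 20.0 and 9.37 CPM in the intact libraries and 308, 705 and 931 CPM after resection, Clec4d, its partner, at 26.5, 16.0 and 18.5 CPM in the intact libraries and 190.5, 366 and 439 CPM after resection, and Clec10a, a galactose-binding lectin, at 14.1, 11.999 and 6.95 CPM in the intact libraries and 40.8, 44.1 and 55.7 CPM after resection. The partners Clec4e and Clec4d rose together, 36.0-fold and 16.3-fold. Of 16 Fc receptor genes 7 rose and 1 fell. The number that rose was 4 without resected library 3, and the number that fell was 4 without intact library 3. Fcgr1, the high-affinity receptor for IgG, was at 15.8, 14.8 and 7.69 CPM in the intact libraries and 31.9, 68.6 and 73.6 CPM after resection, and Fcgr3 at 104, 92.0 and 51.5 CPM in the intact libraries and 301, 317 and 389.9 CPM after resection.

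Among signalling genes, many regulators of the NF-kB pathway rose. Of 30 subunits and feedback regulators 12 rose and 0 fell, with a median of 1.03, or 0.60 without resected library 3. With only the 6 blood libraries fitted 6 rose. Nfkbia, the inhibitor that NF-kB itself induces, was at 339.9, 329.8 and 253 CPM in the intact libraries and 1516, 2532 and 2115 CPM after resection (log2 fold change 2.74 ± 0.33 (SE), adjusted p = 0.00112). Nfkbib, another inhibitor of the family, was at 35.3, 40.5 and 26.6 CPM in the intact libraries and 107, 159 and 166 CPM after resection, and Nfkbiz, a nuclear cofactor, at 172, 167 and 80.7 CPM in the intact libraries and 715, 1587 and 1459 CPM after resection. All 3 inhibitors or cofactors were lowest in resected library 1 yet above every intact library. The NF-kB consensus, searched on both strands, was found in 13 of 33 promoter windows of 25 of the 30 genes (39.4%), beside 5.14% of the windows of all symbols tested, 6.76% for genes that rose and 5.12% for genes that fell. The list was built from genes of the NF-kB pathway and its windows were not split by call. The share therefore describes the list and not the change after resection. The match before Nfkbia begins 29 bases from the start and is shown because the gene is the best known of these targets (RefSeq, build GRCm38.p6, chr12:55492648-55492897 on the minus strand, 250 bases before the start, consensus in capitals).
Nfkbia: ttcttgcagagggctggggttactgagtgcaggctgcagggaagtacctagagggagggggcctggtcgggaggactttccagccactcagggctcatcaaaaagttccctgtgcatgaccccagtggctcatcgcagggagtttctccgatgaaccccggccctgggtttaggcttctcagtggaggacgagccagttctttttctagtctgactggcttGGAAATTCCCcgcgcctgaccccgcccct

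Of 32 AP-1, EGR and NR4A factors 9 rose and 0 fell. Ier3, a stress-induced protein, was at 13.7, 12.1 and 8.41 CPM in the intact libraries and 213, 298 and 206 CPM after resection, Mafg, a small Maf factor, at 62.3, 65.6 and 52.5 CPM in the intact libraries and 146, 182 and 231 CPM after resection, and Egr1 at 98.6, 117 and 53.3 CPM in the intact libraries and 589, 684 and 380.3 CPM after resection. Ier3 rose 21.0-fold, against 3.10-fold for Mafg. AP-1 letters TGANTCA, which read the same on the other strand apart from the central base, were searched too. They were in 9.72% of 1420 windows of genes that rose and 4.48% of 1094 windows of genes that fell. The share was 5.69% of the windows of symbols tested and 7.81% of all 32851 windows. For TTGCNNAA, the letters of C/EBP factors, the shares in the same order were 12.3%, 7.5%, 9.14% and 10.8%. Of 23 STAT and SOCS genes 2 rose and 2 fell, with a median of -0.18, or -0.31 without intact library 3. Each share was 8.70%, near the 9.2% higher and 6.86% lower over all symbols. Socs3, a feedback inhibitor of the interleukin-6 receptor pathway, was at 185, 284 and 178 CPM in the intact libraries and 759, 1543 and 1648 CPM after resection. It rose without overlap between the states. Of 20 glucocorticoid-responsive genes 7 rose and 1 fell. Sgk1, a kinase, was at 149, 128 and 77.9 CPM in the intact libraries and 614, 1030.3 and 719 CPM after resection, Mt1 and Mt2, metallothioneins that bind zinc, at 22.7, 10.8 and 17.0 and 5.39, 2.57 and 2.29 CPM in the intact and 184, 224 and 454 and 71.6, 106 and 259.9 CPM in the resected libraries. Tsc22d3, a classical glucocorticoid target, was at 877, 668 and 372 and 312, 353 and 228 CPM. It was called lower, the opposite direction, and lost that call without any 1 of 10 libraries, among them all 3 resected and the first 2 intact blood libraries. Of 20 clock genes 4 rose, among them Nr1d1, the repressor REV-ERB alpha, at 22.8, 15.8 and 11.6 CPM in the intact libraries and 148, 92.5 and 91.0 CPM after resection, and Bhlhe40 at 230.5, 212 and 62.4 CPM in the intact libraries and 676, 880.0 and 853 CPM after resection. Of 35 transcription factors of macrophages and monocytes 13 rose and 1 fell, with 8 higher without intact library 2 and 7 without resected library 2 or 3. Tfec, a relative of TFEB, was at 2.56, 2.65 and 1.31 CPM in the intact libraries and 17.3, 29.6 and 38.9 CPM after resection, Id2 at 129.6, 119.6 and 150.0 CPM in the intact libraries and 249, 320.3 and 299.6 CPM after resection, and Rarb, a retinoic acid receptor that is also in the peritoneal macrophage list, at 4.46, 5.52 and 3.52 CPM in the intact libraries and 21.0, 24.6 and 14.6 CPM after resection.

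Metabolic genes are given by pathway. Of 28 antioxidant and NRF2 target genes 17 rose and 0 fell, with a median of 1.48. Hmox1, haem oxygenase 1, was at 52.8, 42.3 and 35.5 CPM in the intact libraries and 565, 726 and 801 CPM after resection (log2 fold change 4.003 ± 0.36 (SE), adjusted p = 0.000428). Gpx3, a secreted glutathione peroxidase, was at 1.65, 1.26 and 1.77 and 13.4, 15.7 and 20.3 CPM, and Me1, malic enzyme, at 0.138, 0.360 and 0.393 and 6.93, 8.53 and 10.9 CPM. Slc7a11, the cystine carrier, which was chosen after its values were seen, was at 2.23, 2.44 and 1.33 and 38.5, 119.9 and 306 CPM. Of 23 genes of iron and haem handling 12 rose and 0 fell, with a median of 1.62, or 1.06 without intact library 2. Fth1 and Ftl1, the chains of the iron store ferritin, rose 4.96-fold and 3.21-fold, and Slc11a1, which carries metal out of the phagosome, was at 71.3, 50.6 and 37.5 CPM in the intact libraries and 264, 334 and 492 CPM after resection. Together with Cd163 and Hmox1 these genes cover uptake of haemoglobin, breakdown of haem and storage of iron, and the haemoglobin transcripts themselves overlapped between states.

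Of 34 genes of glycolysis and the response to low oxygen 18 rose and 0 fell, with a median of 1.28. The count was 10 without intact library 1 and 9 without intact library 2, resected library 2 or resected library 3. It was 10 when only the 6 blood libraries were fitted. Hk2, hexokinase 2, was at 19.3, 21.7 and 16.6 CPM in the intact libraries and 118, 154 and 208 CPM after resection, Eno1, enolase, at 257, 256 and 263 CPM in the intact libraries and 604, 705 and 769 CPM after resection, and Slc16a3, the lactate exporter, at 22.1, 25.6 and 12.5 CPM in the intact libraries and 94.7, 202 and 364 CPM after resection. Slc16a3 was spread more widely over the resected libraries than Hk2 or Eno1, and all 3 lay above the intact ones. Of 20 genes of arginine and polyamine metabolism 6 rose. Slc7a2, an arginine carrier, was at 2.48, 0.719 and 1.73 CPM in the intact libraries and 40.5, 71.3 and 226 CPM after resection and Slc7a7, another carrier of cationic amino acids, at 25.7, 28.9 and 21.2 CPM in the intact libraries and 99.4, 106 and 98.0 CPM after resection. Nos2, inducible nitric oxide synthase, had no more than 3 counts in any intact library and stood at 5.40, 11.4 and 111 CPM after resection, at least 568-fold higher on the mean against 3 counts per library. Nos2 was highest in resected library 3. Of 25 eicosanoid genes 12 rose and 0 fell, with a median of 1.30. Pla2g4a, the phospholipase that frees arachidonic acid, was at 7.18, 5.94 and 4.22 CPM in the intact libraries and 28.3, 37.0 and 40.5 CPM after resection, Ptgs2, cyclooxygenase 2, at 6.50, 9.35 and 1.57 CPM in the intact libraries and 64.8, 383 and 212 CPM after resection, and Alox5, 5-lipoxygenase, at 35.7, 24.7 and 20.3 CPM in the intact libraries and 145, 156 and 183 CPM after resection. All 3 of these genes were higher after resection. The part of the meloxicam given around surgery in the eicosanoid genes was not tested. Of 34 genes of cholesterol and lipid handling 8 rose and 1 fell, with 5 higher without resected library 3. Trem2, a lipid receptor of macrophages, was at 3.47, 2.29 and 5.48 CPM in the intact libraries and 15.0, 25.6 and 15.5 CPM after resection and Apoc2, the cofactor of lipoprotein lipase, at 6.74, 4.29 and 3.95 CPM in the intact libraries and 28.5, 38.3 and 46.6 CPM after resection.

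Genes of adhesion and migration were counted apart from chemokine and cam-named genes. Of 21 selectin ligand and transmigration genes 5 rose and 1 fell, and 3 rose without intact library 2 or resected library 3. Itgb2, the beta chain of leukocyte integrins, was at 566, 491 and 302 CPM in the intact libraries and 1339, 1766 and 1986 CPM after resection, and Cd44, the hyaluronan receptor, at 400.1, 434 and 225 CPM in the intact libraries and 739, 1134 and 1483 CPM after resection. Spn, the sialomucin CD43 that marks nonclassical monocytes and T cells, was at 283, 259 and 186 CPM in the intact libraries and 79.9, 70.8 and 80.7 CPM after resection (log2 fold change -1.65 ± 0.35 (SE), adjusted p = 0.0105). Of 24 integrin subunits 6 rose and 1 fell. Itgb1 was at 383, 388 and 385 CPM in the intact libraries and 766, 850.0 and 776 CPM after resection and Itga6 at 224, 143 and 140.2 CPM in the intact libraries and 446, 495 and 432 CPM after resection, and neither overlapped between states. Of 27 semaphorins, plexins and neuropilins 2 rose (7.41%) and 3 fell (11.1%), near the 9.2% higher and 6.86% lower over all symbols. Among them Sema6b was at 7.27, 6.29 and 3.25 CPM in the intact libraries and 48.2, 46.7 and 99.9 CPM after resection and Plxnd1 at 174, 138 and 126 CPM in the intact libraries and 70.7, 42.9 and 42.7 CPM after resection. Of the latter list 1 fell without resected library 2 or 3. The median was 0.74 for the selectin list (0.24 without resected library 3), 0.17 for integrins (-0.15 without intact library 3) and 0.19 for semaphorins (0.03 without intact library 3).

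Survival, interferon, stress and cell cycle genes showed mixed or few changes. Of 19 BCL2 family genes 6 rose and 1 fell. Bcl2a1a, Bcl2a1b and Bcl2a1d, near-identical copies of a prosurvival gene among which the counting could split reads, rose 5.68-fold, 5.70-fold and 3.00-fold. The proapoptotic Bcl2l11 was at 97.8, 74.1 and 85.2 CPM in the intact libraries and 171, 247 and 292 CPM after resection, so members with opposite roles rose. Of 43 interferon-stimulated genes 6 rose (13.95%) and 5 fell (11.6%), beside 9.2% higher and 6.86% lower over all symbols. Their median was 0.01, which was -0.30 without intact library 3 and -0.32 without resected library 3. Ifitm1 was at 3.74, 5.29 and 2.25 CPM in the intact libraries and 94.7, 169.8 and 489 CPM after resection and Ifitm2 at 126, 110.2 and 72.8 CPM in the intact libraries and 336, 504 and 967 CPM after resection, while Ifit2 was at 32.1, 31.9 and 17.9 CPM in the intact libraries and 11.5, 9.58 and 9.63 CPM after resection. The number that fell was 9 without intact library 3 and 2 without resected library 3, and 3 rose without the latter. Of 30 heat shock proteins and chaperones 1 rose and 3 fell. The number that fell was 1 without intact library 3, resected library 1 or resected library 3, and 5 without spleen intact library 3. Hsph1, a co-chaperone, was at 281, 255 and 530.4 CPM in the intact libraries and 34.9, 55.7 and 21.9 CPM after resection (log2 fold change -3.25 ± 0.55 (SE), adjusted p = 0.00394), and Hspa13 at 26.3, 27.7 and 30.0 CPM in the intact libraries and 51.8, 73.1 and 93.5 CPM after resection. Of 18 genes of MHC class II and costimulation 3 rose and 0 fell, but only 4 had a log2 fold change above 0. Their median was -0.31, or 0.05 without intact library 2. Without intact library 3, 2 rose and 2 fell, with a median of -0.67. Among those that rose, Cd86, a ligand of CD28, was at 27.5, 18.3 and 9.98 CPM in the intact libraries and 77.7, 71.0 and 72.4 CPM after resection. Of 41 cell cycle and DNA replication genes 0 rose and 1 fell. Their median was -1.26 with all libraries and 0.65 without intact library 3, so its sign rested on that library.

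Genes among those that fell with the smallest p-values follow, again chosen only where the states did not overlap. Fam78a, a gene of unknown function, was at 158, 144 and 186 CPM in the intact libraries and 31.9, 22.0 and 23.3 CPM after resection (log2 fold change -2.66 ± 0.18 (SE), adjusted p = 0.000236). Setd1b, a histone methyltransferase, was at 137, 125 and 140.3 CPM in the intact libraries and 33.7, 33.2 and 41.1 CPM after resection (log2 fold change -1.90 ± 0.18 (SE), adjusted p = 0.000491). Taok2, a kinase upstream of p38, was at 117, 123 and 124 CPM in the intact libraries and 50.6, 45.9 and 55.5 CPM after resection (log2 fold change -1.26 ± 0.12 (SE), adjusted p = 0.000430). The intact libraries, library 3 included, were within a narrow band in these genes. Every resected library lay below it, as the choice required. Cnot6l, a subunit of the deadenylase complex, was at 172, 156 and 188 and 84.9, 80.4 and 74.0 CPM. Rbm5, a splicing regulator, was at 149, 162 and 159.6 and 68.9, 64.2 and 75.4 CPM. Nup210, a nuclear pore protein, was at 289, 262 and 315 and 133, 126 and 104 CPM. These 3 genes lost about the same part of their level, with intact levels 2.15, 2.26 and 2.39 times the resected ones. Pdpk1, the kinase that activates AKT, was at 118, 118 and 163 and 55.1, 60.0 and 61.3 CPM, Prr12 at 56.8, 66.8 and 79.9 and 22.7, 21.6 and 18.3 CPM and Zgpat, a zinc finger repressor, at 49.2, 54.3 and 62.9 and 21.1, 18.4 and 20.5 CPM. Agap2, a GTPase-activating protein, was at 54.4, 63.5 and 46.4 and 24.3, 20.2 and 23.4 CPM and Pcmtd2 at 60.1, 72.2 and 69.6 and 27.6, 31.0 and 28.5 CPM.

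Families were also defined by symbol after these genes were seen, and are given with no test. Of 344 zinc finger genes named Zfp with a number 7 rose and 90 fell, beside 9.2% higher and 6.86% lower over all symbols, with a median log2 fold change of -0.66. Without resected library 2, 4 rose and 54 fell. With only the 6 blood libraries fitted 4 of 330 rose and 42 fell. Dropping any 1 blood library gave medians from -0.69 to -0.61. Of 79 chromatin genes of the Setd, Kmt, Kdm, Chd, Brd, Smarc and Arid families 1 rose and 13 fell, with a median of -0.55, and 8 fell without intact library 3 and 7 without resected library 2. With only the blood libraries fitted 6 of 78 chromatin genes fell. Of 71 splicing and RNA-binding genes 2 rose and 3 fell, with 5 lower without intact library 1. The 96 cytosolic ribosomal proteins had 1 higher and 1 lower with a median of 0.02 (-0.10 without resected library 1), the 78 mitochondrial ones 0 higher and 1 lower, and the 79 subunits of the respiratory chain and ATP synthase 0 called, which became 5 higher without intact library 3. Proteasome subunits had 1 of 38 higher, and 4 without intact library 3.

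The largest falls had another shape. Dntt, which adds nucleotides to rearranging antigen receptor genes in lymphoid precursors, was at 7.27, 3.52 and 623 CPM in the intact libraries and 0.610, 0.340 and 0.169 CPM after resection. Sox4, a transcription factor of precursor cells, was at 12.3, 7.96 and 288 CPM in the intact libraries and 2.04, 1.46 and 1.41 CPM after resection, Gata3, a factor of T cells, at 21.3, 18.7 and 258 CPM in the intact libraries and 4.76, 4.48 and 2.45 CPM after resection, and Myb, a factor of haematopoietic precursors, at 22.4, 13.5 and 457 CPM in the intact libraries and 10.2, 8.66 and 5.12 CPM after resection. In each of them intact library 3 was more than 10 times as high as the other intact libraries. Endou, an endoribonuclease, was at 5.37, 2.49 and 212 and 1.10, 0.510 and 0.844 CPM, Cdk5rap2, a centrosomal protein, at 38.7, 38.9 and 693 and 22.0, 21.0 and 17.3 CPM, and Amot at 2.83, 2.00 and 280.5 and 1.74, 1.53 and 1.69 CPM. Amot, Cdk5rap2, Aldh1b1, Arsi, Scn2b and D430041D05Rik were not called without intact library 3 or without any 1 of the resected libraries, and Amot, Aldh1b1 and Arsi also lost the call without spleen intact library 2, the first pair of them without spleen intact library 1 too. Endou and Myb were not called without any 1 of the resected libraries, Dntt not without resected library 2 or 3, and Sox4 and Gata3 not without resected library 3. Of the 1072 genes that fell 374 (34.9%) were more than 2 times as high in intact library 3 as the mean of intact libraries 1 and 2, and 646 were still called lower without that library. Of the 1415 that rose 353 (24.9%) were more than 2 times as high in resected library 3 as the mean of the other resected libraries, and 871 were still called higher without it.

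**Figure D3:**
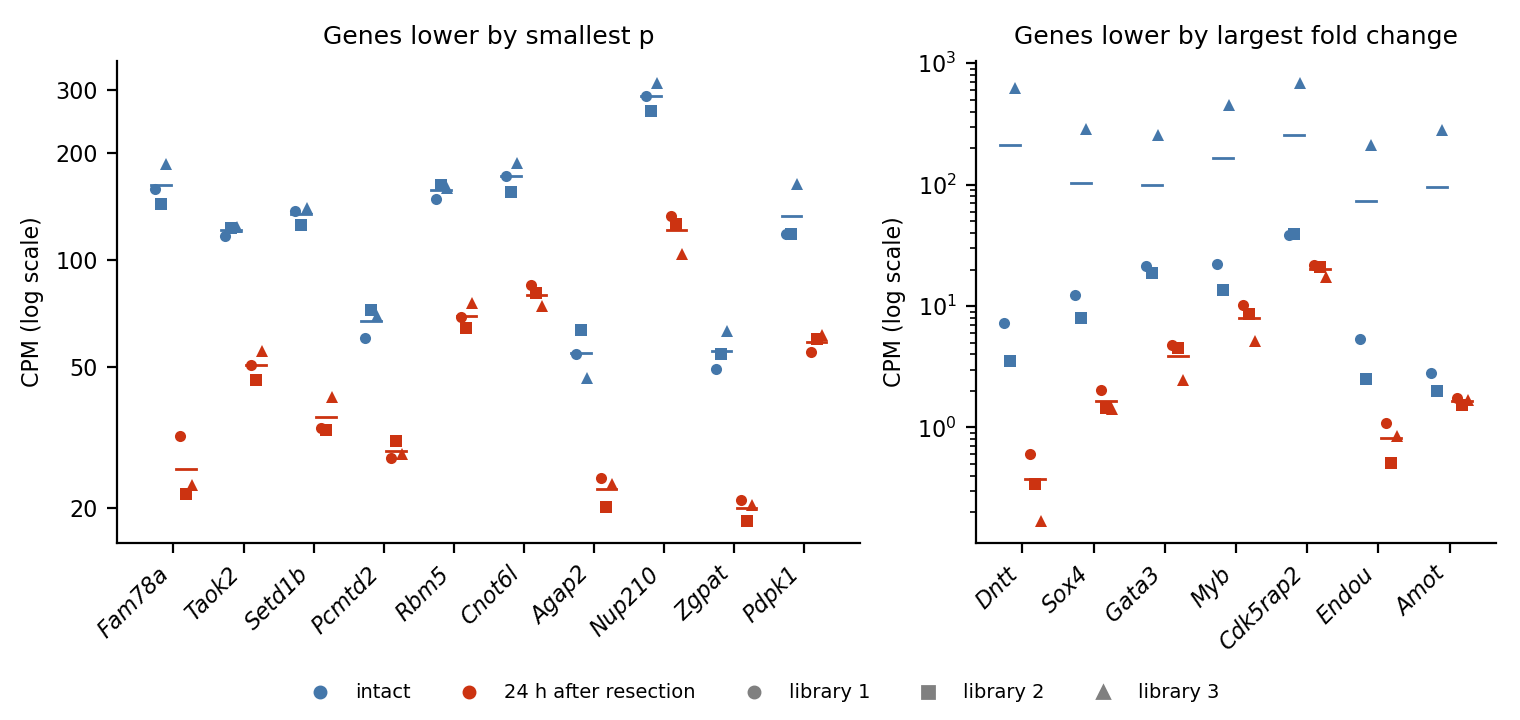
Level (CPM, logarithmic axes with different ranges) of 10 genes that fell with the smallest p-values and of 7 that fell with the largest fold changes, in the 3 intact (blue) and 3 resected (red) blood libraries, with lines at group means. The intact libraries agree in the first panel, while in the second panel intact library 3 (triangles) stands far above the other intact libraries, as for Dntt at 623 CPM against 7.27 and 3.52 CPM.

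Marker lists of cell types were summed in each library as a description of the sorted fraction. Of 15 general monocyte markers 9 rose and none fell, from a sum of 10336, 7402 and 3618 CPM to 13482, 14857 and 13004 CPM. The number that rose was 4 without intact library 2, resected library 2 or resected library 3, and 5 without intact library 3, which had the lowest monocyte sum. Fcer1g, the signalling chain of Fc receptors, was at 80.9, 75.3 and 33.8 CPM in the intact libraries and 180.4, 224 and 326 CPM after resection, and Tyrobp, a similar adaptor, at 204, 165 and 66.7 CPM in the intact libraries and 442, 515 and 585 CPM after resection. Lyz2, lysozyme, was at 6802, 4511 and 2421 CPM in the intact libraries and 8351, 9044 and 5543 CPM after resection and did not pass. Ly6c2, a marker of classical monocytes, was at 77.0, 70.0 and 13.4 CPM in the intact libraries and 31.0, 41.6 and 35.2 CPM after resection, overlapped between states and did not pass either. Of 14 classical markers 9 rose, 7 without intact library 2 or 3 and 6 without resected library 3. Of these 14 markers 3 are also in the neutrophil or peritoneal macrophage list. Of 15 nonclassical markers 2 rose (13.3%) and 1 fell (6.67%), beside 9.2% higher and 6.86% lower over all symbols. The number that fell was 3 without intact library 3 or spleen resected library 3.

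Of 22 neutrophil markers tested 22 rose. The number that rose was 21, 18 and 19 without intact libraries 1, 2 and 3. It was 20, 20 and 16 without resected libraries 1, 2 and 3. Ly6g, which defines neutrophils, was at 1.76, 1.26 and 0.655 CPM in the intact libraries and 17.0, 23.0 and 37.3 CPM after resection, and Prtn3, a granule protease, at 1.73, 1.21 and 1.49 CPM in the intact libraries and 45.1, 54.4 and 42.5 CPM after resection. Retnlg was at 20.3, 22.2 and 4.06 and 305, 333 and 1658 CPM. Ly6g, S100a8 and Retnlg were highest in resected library 3. Of 23 peritoneal macrophage markers 19 rose, 10 without intact library 2 and 11 without resected library 2. Prg4, a lubricating proteoglycan, was at 508, 146 and 285 CPM in the intact libraries and 1723, 1613 and 1655 CPM after resection, Alox15, 12/15-lipoxygenase, at 331, 103 and 142 CPM in the intact libraries and 2759.8, 2949 and 2042 CPM after resection, and Adgre1, the antigen F4/80, at 131, 64.5 and 118 CPM in the intact libraries and 810.3, 1139.6 and 793 CPM after resection. Gata6, the factor that defines resident peritoneal macrophages, was at 5.86, 2.85 and 3.78 CPM in the intact libraries and 21.6, 23.7 and 17.7 CPM after resection and lost its call without intact library 2 or without resected library 1 or 2. Timd4 of the same list was at 40.7, 19.3 and 24.9 and 38.4, 43.5 and 25.8 CPM and overlapped. Levels of Prg4, Alox15 and Adgre1 were even over the resected libraries, as were those of Slpi, Mertk, Ctsd and the lysosomal genes. The part of peritoneal macrophages in those genes was not tested.

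Of 14 Kupffer cell markers 8 rose, 5 without intact library 1 or resected library 3 and 4 without resected library 2, and Clec4f, which defines these resident liver macrophages, had no count in any resected library, which allows at most 0.0844 to 0.102 CPM by counting error. Of 12 red pulp macrophage markers 6 rose, and 3 without resected library 3. Of 19 hepatocyte genes 17 had too few counts to test, and 9, among them Apoa1, Fgg and Serpina1a, were at 0 in all resected libraries. Of the tested pair Hpx was not called, while Trf, transferrin, which was chosen after its values were seen, was at 534, 322 and 319 CPM in the intact libraries and 937, 857 and 636 CPM after resection and was called higher (log2 fold change 1.05 ± 0.32 (SE), adjusted p = 0.0427). It lost the call without any 1 of 9 libraries, among them all 3 resected and intact libraries 2 and 3. Of 16 T-cell markers 0 rose and 11 fell, 5 of them without resected library 3. Cd4 was at 166, 143 and 320.2 CPM in the intact libraries and 48.9, 47.3 and 27.9 CPM after resection, and Bcl11b, a T-cell transcription factor, at 157, 154 and 337 CPM in the intact libraries and 25.4, 26.1 and 16.3 CPM after resection. Cd4 and Bcl11b were lower in each resected library than in each intact one, not only against intact library 3. Of 14 NK-cell markers 2 fell, 0 without intact library 2 or resected library 2, 7 without intact library 3 and 4 without spleen resected library 3. Of 11 eosinophil markers only Alox15 rose, of 13 basophil and mast cell markers 4 rose, among them Hdc, histidine decarboxylase, at 13.3, 11.8 and 3.17 CPM in the intact libraries and 85.5, 172 and 424 CPM after resection, while the basophil protease Mcpt8 was at 1.07, 0.385 and 0.131 and 0.519, 0.102 and 0.0563 CPM. None of 15 B-cell, 15 platelet, 13 plasmacytoid dendritic cell and 11 mesothelial markers was called. Without intact library 2 3 mesothelial markers were higher, without intact library 3 3 B-cell and 1 plasmacytoid markers were lower, and without spleen resected library 3 1 platelet marker was higher and 1 B-cell marker lower. Of the remaining lists 1 of 16 erythroid (6.25%), 1 of 13 conventional dendritic cell (7.69%) and 3 of 8 plasma cell markers (37.5%) rose, beside 9.2% of all symbols.

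**Figure D4:**
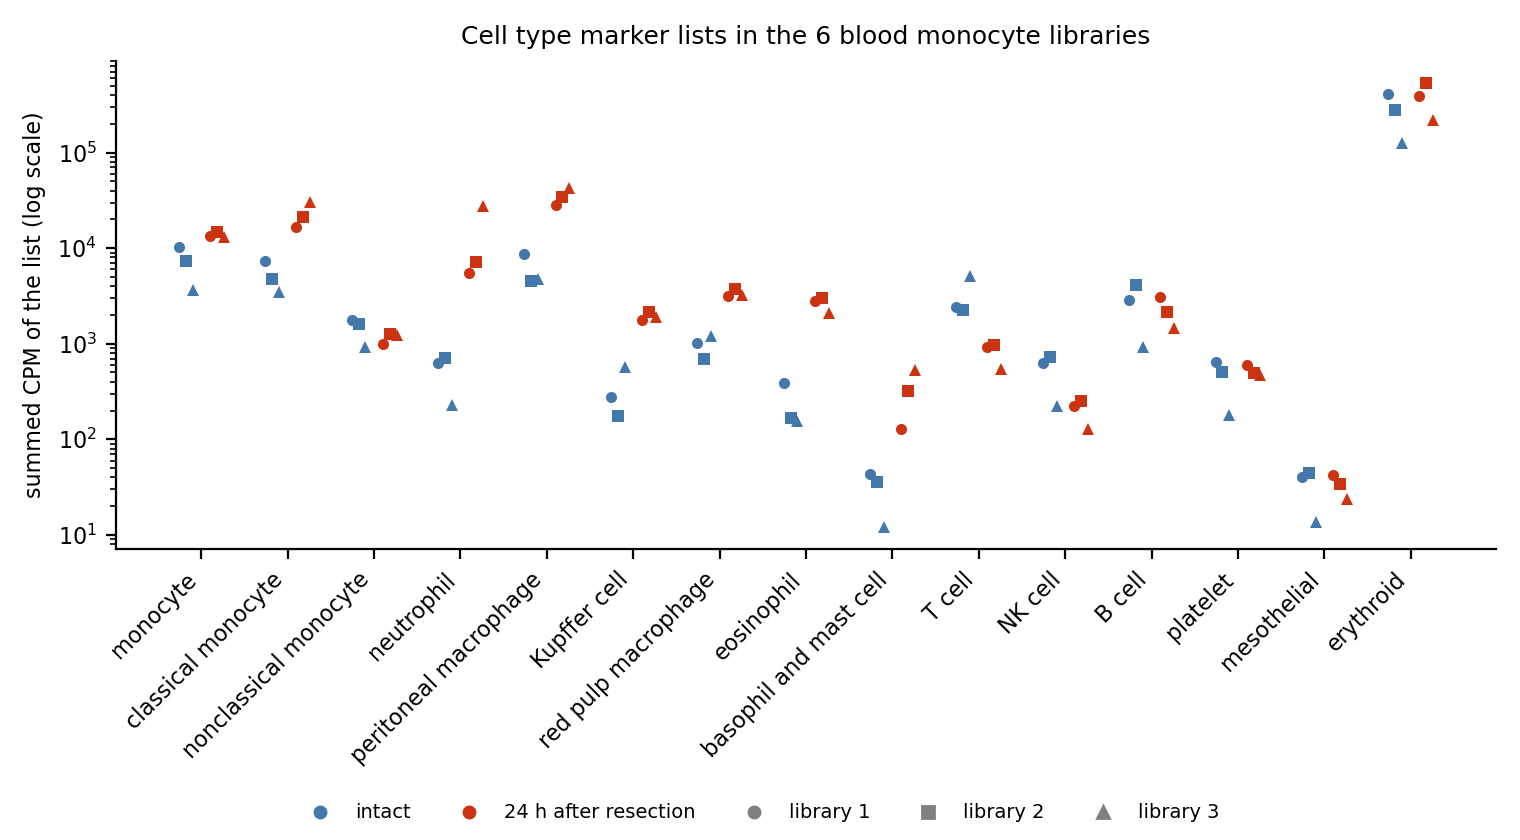
Summed level of the tested genes of 15 cell type marker lists (CPM, logarithmic axis) in each intact (blue) and resected (red) blood library, with a symbol shape for the library number. Neutrophil and peritoneal macrophage sums are higher in every resected library, the T-cell sum is lower in every resected library, and erythroid sums overlap between states.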

How the data were processed

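RNA-seq libraries of CD115+ monocytes were analysed from the estimated counts per transcript and gene entry that the authors deposited, 1 table per library, with no scaling to depth or length. STAR and GRCm39 are named in the submitters' processing notes. The counting tool and annotation are not given in the sources used here. Of 67088 entries 24256 were gene symbols and 40274 RefSeq accessions, of which 25340 were matched to a symbol through the RefSeq table of GRCm38.p6, used for names and promoter windows only. A further 2558 unassigned entries, 1.75% to 4.33% of a library, were left out. Counts were summed per gene and rounded. Reads of near-identical genes, such as the Bcl2a1 and stefin copies, may have been split, so single members are uncertain.

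Counts were fitted in R 4.3.3 with edgeR 4.0.16 (filterByExpr, TMM, robust glmQLFit and glmQLFTest) over all 12 libraries in 4 groups without covariates, which left 8 residual degrees of freedom. Calls needed a Benjamini-Hochberg adjusted p below 0.05 over the 20135 features tested and a log2 fold change beyond 1 in either direction. The SE is the absolute log2 fold change divided by the square root of F. A level of 3 counts or fewer was taken as the limit of counting (0.0655 to 0.102 CPM in blood). Limits cover counting error only, since no molecular identifiers are named. Each library pools monocytes of 5 mice, and p-values measure the spread between such pools, estimated over blood and spleen together. The script was tested on simulated data. Alternatives were DESeq2 1.42.0, RLE factors, other filters, entries as deposited, no haemoglobin genes, only blood libraries, a replicate block, each library left out and no fold limit.

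Groups came from the sample titles. Members, lists and tests were chosen with earlier results of these data known. Chemokine, chemokine receptor and CAM-named genes are not named, and some genes that the rule selects are not reported here. Named genes were Slpi, Mertk, Ctsd and Csf1r, genes among the 12 smallest p-values and 12 largest fold changes in each direction (at least 50 CPM in the higher group, no overlap between states), up to 5 called genes per list and direction by smallest p (at least 5 CPM), any member needed to show that a list did not move as one, and markers where their list is described.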

Additional observations from a re-analysis of the deposited data

Results flagged for a closer look

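The effect of resection differed between blood and splenic monocytes, by the interaction term of the same edgeR quasi-likelihood fit, in 18 of the genes named above, 17 of them with the more positive fold change in blood. The same test called 0.312% of all gene symbols, 43 with the more positive log2 fold change in blood and 6 with the more negative. Values are the log2 fold change in blood minus that in spleen with the SE of the difference, and the fold changes in each tissue follow in brackets. Slpi, a secreted protease inhibitor, and 4 other genes of the leading group gave differences of Slpi 3.30 ± 0.33 (5.12 in blood and 1.82 in spleen), Mertk 2.63 ± 0.37 (3.45 in blood and 0.81 in spleen), C1ra 2.64 ± 0.35 (4.14 in blood and 1.50 in spleen), Spp1 6.80 ± 0.90 (8.83 in blood and 2.04 in spleen) and Tgm2 2.97 ± 0.42 (4.13 in blood and 1.15 in spleen). The Benjamini-Hochberg adjusted p of these 5 edgeR tests lay between 0.0136 for Slpi and 0.0334 for Tgm2 and Mertk. Lysosomal genes gave smaller differences, Glmp 1.13 ± 0.13 (1.20 in blood and 0.07 in spleen), Ctsz 1.35 ± 0.20 (1.58 in blood and 0.23 in spleen), Ctsa 1.35 ± 0.23 (1.51 in blood and 0.16 in spleen), Glb1 1.29 ± 0.21 (1.63 in blood and 0.33 in spleen) and Naglu 1.53 ± 0.21 (1.59 in blood and 0.07 in spleen). None of these lysosomal genes was called in spleen. Signalling and surface genes gave Tnfsf9 6.30 ± 0.75 (6.64 in blood and 0.34 in spleen), Osm 3.73 ± 0.59 (3.59 in blood and -0.15 in spleen), Ptgs2 6.07 ± 1.02 (5.24 in blood and -0.83 in spleen), Clec10a 3.54 ± 0.41 (2.09 in blood and -1.45 in spleen), Rarb 3.18 ± 0.50 (2.15 in blood and -1.02 in spleen), Rab20 2.54 ± 0.42 (3.80 in blood and 1.26 in spleen) and Bcl2a1b 2.60 ± 0.43 (2.51 in blood and -0.09 in spleen). Of these 7, Osm, Ptgs2, Clec10a, Rarb and Bcl2a1b had values below 0 in spleen. The gene with the more negative value in blood was Fam78a -1.69 ± 0.25 (-2.66 in blood and -0.97 in spleen).

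These calls were less stable than those within blood. None of the 18 was called with the replicate number as a covariate, and 1 was called without resected blood library 2, 1 without intact blood library 2 and 5 without resected blood library 3, while DESeq2 called all 18.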

How the results depend on the processing

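The number of features called after resection in blood, 2801 with 1570 higher and 1231 lower, was 1590 with 513 lower when only the 6 blood libraries were fitted, and 4242 with 2074 lower with no limit on the fold change. With library 3 of both blood groups left out, an alternative chosen after seeing the data, 1025 features were higher. Leaving out each of the 12 libraries gave 1627 to 2814 features, 992 to 1637 higher and 635 to 1232 lower, the lowest totals being 1627 and 1770 when resected blood libraries 3 and 2 were dropped. DESeq2 called 3700, and RLE factors, other count filters, entries as deposited and haemoglobin genes left out gave 2332 to 2816. The number of features whose effect differed between blood and spleen was 57, and it was 1140 with DESeq2, 99 with at least 10 counts in every library, 22 without a count filter and 5 to 93 with a library left out. It was 11 without intact blood library 2, 5 and 17 without resected blood libraries 2 and 3, 11, 5 and 7 without the intact spleen libraries in order, and 8, 13 and 93 without the resected ones.

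Replicate numbers were not taken as pairs. The labels name no shared animal or day. The correlations of same-numbered resected and intact blood libraries in their deviations from the group means were 0.0177, 0.0089 and -0.00205. Those of blood with spleen libraries of the same state ran from 0.000203 to 0.189 for the same number. For different numbers they ran from -0.186 to 0.0734. Whether blood and spleen libraries of the same number share animals was not tested. With the replicate number as a block 2168 features were called in blood and 1 for the difference between tissues.

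Of 168 named genes called in blood, 152 kept the call with each library left out and 144 under each alternative that gave them a value. With only the 6 blood libraries fitted 15 of them lost the call. None of these 168 reversed direction in those fits. Hpx, which was not called, moved between -0.30 and 0.53 with a library left out and was below 0 without intact blood library 1 (-0.15) or resected blood library 1 (-0.30). The causes of these shifts were not tested. The simulated comparison on 19042 genes recovered 52 of 100 genes changed 4-fold, so at this spread a missed call does not show a lack of change.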
